A study of Mus musculus with 8 samples.

Results

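The genes followed here across the livers of 8 mice are 10 listed genes of the extracellular matrix: Lama2, Fn1, Svep1, Postn, Tnc, Thbs1, Thbs2, Sparc, Dcn and Lum. They encode matricellular and adhesive matrix glycoproteins, were taken by symbol from the gene lists of the deposited files, and all 10 were found among the 32285 genes of each file. The study sequenced single nuclei from snap-frozen livers of male DIAMOND mice (genotype given as 129A1/SvIm and C57BL/6J cross mice), with 1 library per mouse and the 10x Genomics 3′ chemistry. All 8 mice received a Western diet, that is high-fat food with fructose and glucose in the drinking water. In the WD tumour group (n = 3) it lasted 48 weeks and the mice had hepatocellular carcinoma. The RD tumour mice (n = 2) and RD no tumour mice (n = 3) had 36 weeks of it and were then returned to a standard chow diet; hepatocellular carcinoma was present in the former and not detectable in the latter. All 8 mice ended at an age of 48 weeks per the labels, a statement not reconciled here with the 48 weeks of diet of WD tumour. No mouse kept on chow throughout was analysed here, so no group gives the level of a liver never exposed to the Western diet. The labels do not say whether the piece of liver sequenced held tumour. Comparing both RD groups addresses the presence of a tumour after diet reversal, comparing WD tumour with RD tumour addresses the diet among tumour-bearing mice, and WD tumour differs from RD no tumour in both respects.

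Adhesive glycoproteins tie cells to the matrix: fibronectin (Fn1) is a blood plasma protein made by hepatocytes and is also assembled into fibrils by mesenchymal cells, and the laminin alpha-2 chain (Lama2) is built into basement membranes. Svep1 is a large secreted adhesion protein of the matrix that binds an integrin. Matricellular proteins, among them periostin (Postn), tenascin-C (Tnc), the thrombospondins (Thbs1, Thbs2) and Sparc, are secreted into the matrix and change how cells respond to it rather than bearing load. Decorin (Dcn) and lumican (Lum) are small leucine-rich proteoglycans that bind collagen fibrils. In liver, hepatic stellate cells, the vitamin A-storing pericytes of the sinusoid, and portal fibroblasts are the main matrix-producing cells.

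Lama2 and Postn are the members whose level in stellate-like barcodes was higher in each of the 3 WD tumour mice than in each of the 5 RD mice, and the sequences before their start sites are therefore shown. The promoter table (RefSeq, GRCm38.p6, the same build as the mm10 named in the submitters' processing notes) has entries for 6 of the 10 members: Lama2, Svep1, Postn, Tnc, Thbs2 and Sparc. The 250 bases before the RefSeq start site are printed 5′ to 3′ on the strand of the gene, with motif matches in capitals. The Lama2 window is chr10:27616943-27617192 on the minus strand and lies inside the longer GENCODE span of the gene given below, whose start is farther upstream. The Postn window is chr3:54360857-54361106 on the plus strand.
Lama2: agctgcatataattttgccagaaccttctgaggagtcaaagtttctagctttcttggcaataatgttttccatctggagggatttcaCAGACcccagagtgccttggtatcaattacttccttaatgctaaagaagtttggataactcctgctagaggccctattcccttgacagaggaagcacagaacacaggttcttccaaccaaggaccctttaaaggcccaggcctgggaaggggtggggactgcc
Postn: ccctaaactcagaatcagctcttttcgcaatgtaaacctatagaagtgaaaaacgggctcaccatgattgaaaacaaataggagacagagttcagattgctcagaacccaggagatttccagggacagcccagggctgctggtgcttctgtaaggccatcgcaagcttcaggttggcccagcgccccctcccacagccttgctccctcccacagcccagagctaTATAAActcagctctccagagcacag
Letters of 5 binding motifs were searched on both strands. The capitals in Lama2 mark the SMAD letters CAGAC from -163 to -159 relative to the start, a motif held by 42.2% of 32851 promoter windows of this length. The capitals in Postn mark the TATA box letters TATAAA from -26 to -21, which 12.4% of the windows hold. Neither window held the AP-1 letters TGANTCA (in 6.75% of all windows), the TEAD letters GGAATG (in 12.6%) or the GC box letters GGGCGG (in 32.7%). A match or its absence describes the letters of the window only.

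In GENCODE M21 (GRCm38) all 10 members are protein-coding. Lama2 spans chromosome 10, 26980036 to 27619758 on the minus strand, and its span overlaps 5 annotated genes on the other strand and 1 on the same strand. The strand setting of the counting is not given in the sources used here, so reads of Lama2 and of these genes cannot be told apart for certain. Fn1, Svep1, Thbs1 and Tnc each overlap 1 gene on the other strand. Postn lies on chromosome 3, 54361109 to 54391037, plus strand. Fn1 lies on chromosome 1, 71585520 to 71653200, minus strand. Svep1 (58042442 to 58206859) and Tnc (63959785 to 64047015) lie on chromosome 4, minus strand. Dcn (97479609 to 97518143) and Lum (97565128 to 97572703) lie near each other on chromosome 10, plus strand. Thbs1 lies on chromosome 2 (118111876 to 118127133, plus strand), Thbs2 on chromosome 17 (14665500 to 14694235, minus strand) and Sparc on chromosome 11 (55394500 to 55423183, minus strand).

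The libraries held 17948627 to 34363108 counts of unique molecular identifiers (UMIs, 1 per captured RNA molecule), and 6048 to 20000 barcodes per mouse had at least 300 detected genes. Any pair of libraries shared 8 to 65 barcode sequences, at most 0.676% of the smaller library. Barcodes were assigned to classes by marker genes that include none of the members. A stellate-like barcode, for example, showed at least 3 more of 12 stellate markers than the median barcode of its mouse and led every other class by at least 2. The stellate gate held 43 to 787 barcodes per mouse, the endothelial gate 668 to 1616 and the hepatocyte gate 2703 to 9952. The fibroblast gate reached 20 barcodes in 3 of 8 mice and was not tested. RD tumour 1 stood apart. Of 12 genes used to check the gates (3 per class for 4 classes, none a marker), 8 were highest in their own gate in this mouse, against 11 or 12 in each other mouse. Its stellate gate had 43 barcodes (0.215% of its barcodes, against 3.58% to 8.73% in the other 7). The 12 stellate markers summed to 2323 CPM in its stellate gate, against 6757 to 8854 in the other 7 mice. A UMI of a neutrophil or granulocyte progenitor marker was held by 96.5% of its barcodes, 74.4% of those of RD no tumour 1, 41.1% of those of WD tumour 2 and 4.13% to 19.3% in the other 5 mice. RD tumour 2 stood apart in another way: pancreas markers gated 94 of its barcodes and none in the other mice, and their sum was 279 CPM in its library and 149 to 243 CPM in 6 of its other gates, against 0 to 19.9 CPM in the other mice. This library also had the highest smooth muscle marker sum (52.9 CPM, against 21.8 in RD tumour 1 and 5.01 to 9.66 in the other 6). Levels of RD tumour are therefore given by mouse, and median differences also without RD tumour 1. The median share of mitochondrial UMIs was 7.91% in WD tumour 1 and 7.51% in WD tumour 3. In the other libraries, WD tumour 2 among them, it was 1.30% to 3.28%. A limit of 5% per barcode was an alternative setting, and the part of this difference in the levels was otherwise not tested.

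Among the 7 classes with at least 20 barcodes in 7 or 8 mice, 8 of the 10 members had their highest median level in the stellate gate. Levels are UMIs of a gene per 1000000 UMIs of the class (CPM), and the map of class medians shows them side by side for each gene. Lama2 had a median of 108 CPM over 8 mice in the stellate gate (range 43.5 to 316), against 12.4 in hepatocytes and 11.6 in endothelium. Dcn had 1635 CPM (879.8 to 2291) in stellate-like barcodes and 161 in endothelium. Svep1 stood at 80.9 CPM (10.6 to 234) and Lum at 49.7 CPM (28.2 to 97.1), with medians under 12 CPM in the other 6 of these classes. Postn stood at 31.2 CPM (16.5 to 72.9) and Thbs2 at 11.9 CPM (3.77 to 18.5), with medians under 4 CPM in the other 6. Tnc had 20.9 CPM (9.89 to 124) in the stellate gate and a similar median of 18.3 in the T/NK gate, which rests on 0 to 5 Tnc UMIs per mouse. Sparc had 128 CPM (84.7 to 173) in the stellate gate and 83.7 in endothelium. Over mice, the stellate range of Dcn, Lum, Postn and Thbs2 lay above that of the class next in order. For Lama2, Svep1, Tnc and Sparc the 2 ranges overlapped. Classes farther down the order also reached into the stellate range of Lum and Thbs2. Lum reached 64.6 CPM in the cholangiocyte gate (RD tumour 1, 4 UMIs). Thbs2 reached 10.9 CPM in the B gate (RD tumour 1, 1 UMI), 4.09 in the cholangiocyte gate and 3.89 in the T/NK gate. Among the classes below the stellate gate the ranges of neighbours in the order overlapped. Smaller gates, present in fewer mice and left out of this order, also held some of these genes. In the fibroblast gate of RD no tumour 2, RD tumour 2 and WD tumour 3, Lama2 was at 12.4, 207 and 208.5 CPM, Svep1 at 4.15, 62.2 and 29.8 CPM and Thbs2 at 0, 20.7 and 59.6 CPM. The last 2 exceeded the Thbs2 median of the stellate gate, on 2 and 10 UMIs. Postn and Tnc were at 0 CPM in the fibroblast gate of each of these mice. Dcn was at 53.9, 207 and 328 CPM, Sparc at 0, 10.4 and 17.9, and Lum at 0, 10.4 and 23.8. These 3 were below the stellate gate of the same mouse each time. Fn1 was at 577, 415 and 643 CPM, and Thbs1 at 0, 31.1 and 17.9 CPM on 0, 3 and 3 UMIs. The smooth muscle gate of RD tumour 2 (35 barcodes) had 198 CPM of Postn on 13 UMIs, 213 of Sparc on 14 and 137 of Thbs1 on 9, all above the stellate gate of that mouse.

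**Figure D1:**
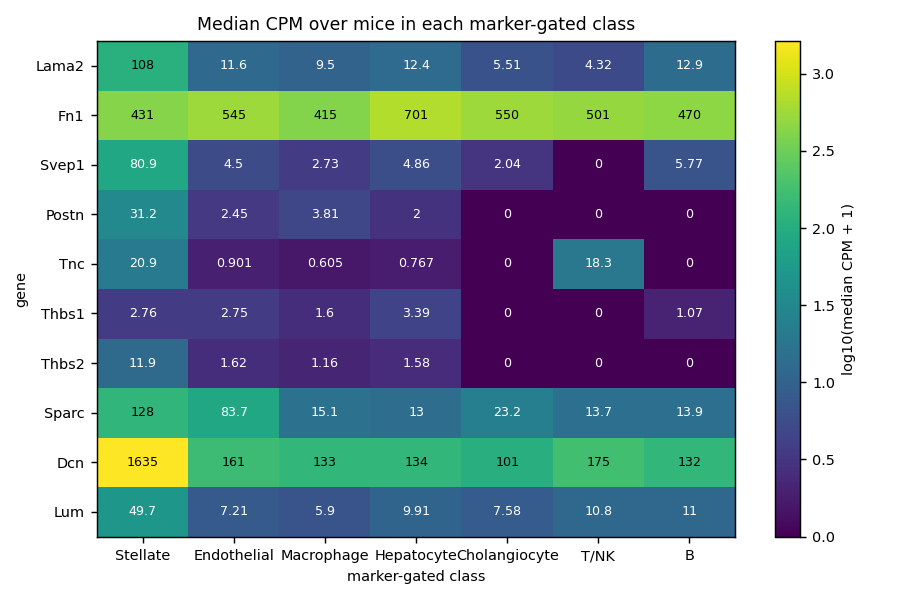
Median CPM over mice (7 mice for T/NK, 8 for the other classes) of each gene (y axis) in each marker-gated class (x axis), with colour on a log10 scale. Lama2, Svep1, Postn, Thbs2, Dcn and Lum are brightest in the stellate column, Sparc in the stellate and endothelial columns, and Fn1 is bright in all columns.

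The stellate gate was compared with the hepatocyte, endothelial and macrophage gates of the same mouse by a two-sided exact sign-flip permutation test of log2(CPM + 1) over mice, run on 19087 genes. Higher in the stellate gate by this test were 14.8% of genes against hepatocytes, 5.24% against endothelium and 6.53% against macrophages. Lama2, Svep1, Postn, Tnc, Thbs2, Dcn and Lum were higher in all 8 mice in all 3 comparisons (exact p = 0.00781, the smallest that 8 mice can give; adjusted over all genes 0.0356, 0.0417 and 0.0457 in that order). The mean difference for Lama2 was 3.73 ± 1.24 log2 units against hepatocytes (SD, n = 8) and 3.33 ± 0.68 against endothelium. For Dcn it was 3.73 ± 1.10 and 3.43 ± 0.58. Sparc, a collagen-binding matricellular protein, was 2.78 ± 1.33 higher in the stellate than in the hepatocyte gate. Against endothelium Sparc differed by 0.63 ± 0.52 and was higher in 7 of 8 mice, which did not pass (permutation test, adjusted p = 0.0573). Without RD tumour 1 the same 7 members were higher in all 7 mice. Their adjusted permutation p was then 0.0461 against hepatocytes, where 17.4% of genes passed as higher. Against endothelium and macrophages it was 0.0545 and 0.0534, and 0% of genes passed, since an unadjusted permutation p of 0.0156 is the smallest that 7 mice can give.

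Fn1, the plasma and matrix fibronectin, had its highest median in the hepatocyte gate among the same 7 classes. It had a median of 701 CPM there (300.1 to 1238) and 415 to 550.5 CPM in the other 6, lymphocytes included. The class ranges overlapped, and the neutrophil gate, present in 4 mice, had a median of 785 CPM (289.5 to 1225). It was lower in the stellate than in the hepatocyte gate in 8 of 8 mice (mean log2 difference -0.84 ± 0.27, SD, n = 8; exact permutation p = 0.00781, adjusted 0.0356), where 16.5% of genes were lower. It was also lower than in endothelium in 8 of 8 mice (-0.27 ± 0.20; permutation test, adjusted p = 0.0417), as were 13.5% of genes. RNA of the 15 hepatocyte markers was present in every gate, and Fn1 UMIs per hepatocyte marker UMI in the stellate gate were 55.4% to 100.3% of the hepatocyte gate's own ratio in the same mouse. In macrophages this value was 54.7% to 121% and in T/NK barcodes 44.1% to 82.4%. A Fn1 level of stellate or immune cells apart from this hepatocyte RNA was not tested. Thbs1, a thrombospondin known for activating TGF-beta, had medians under 4 CPM in all 7 classes. Its median was 3.39 CPM in the hepatocyte gate and 2.76 CPM in the stellate gate, and the 3 comparisons of gates did not pass (adjusted permutation p from 0.448 to 0.929).

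The gates do not hold all UMIs of these genes. Of all Lama2 UMIs, 18.8% to 38.4% lay in the stellate gate in 7 mice (0.857% in RD tumour 1), and 38.6% to 52.5% lay in barcodes of no class. Barcodes of no class in which stellate or fibroblast markers led held 31.5% to 42.0% of the Lama2 UMIs and 27.1% to 42.7% of the Svep1 UMIs in the RD no tumour and WD tumour mice. The same barcodes held 0.0% to 11.8% of the Postn UMIs and 7.72% to 15.6% of the Dcn UMIs of those mice. Lama2 and Svep1 thus extended more than Postn and Dcn into these barcodes. Lama2 stood there at 127, 36.9 and 23.3 CPM in RD no tumour and 49.2 and 55.6 in both RD tumour mice. In WD tumour it was at 118, 129 and 214 CPM. WD tumour and RD no tumour thus overlapped in these barcodes, unlike in the stellate gate described below.

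In whole libraries Lama2 was higher in each WD tumour mouse than in any RD mouse. It stood at 18.9, 14.0 and 6.12 CPM in RD no tumour, 20.4 and 21.6 in both RD tumour mice, and 43.5, 37.9 and 54.1 in WD tumour. The 3 groups did not overlap, and RD no tumour was lowest. From RD no tumour to WD tumour the log2 fold change was 1.78 ± 0.38 (SE), and from RD tumour to WD tumour it was 1.13 ± 0.43. Neither passed the threshold (edgeR quasi-likelihood test, Benjamini-Hochberg adjusted p = 1.00 and 0.590). Whole-library levels cannot tell fewer cells of a type apart from less RNA per cell. The stellate share of barcodes was 3.91% to 8.73% in RD no tumour and 3.58% to 5.37% in WD tumour, and these ranges overlapped.

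None of the 10 members, and no gene at all (0% of 19087), passed an adjusted p of 0.05 in any of the 3 whole-library comparisons with edgeR. The number of genes with an unadjusted edgeR p under 0.05 was 524 for WD tumour versus RD no tumour, 1279 for the comparison of both RD groups and 1443 for WD tumour versus RD tumour. DESeq2 called 36, 64 and 109 genes in the same order. Lama2 was the only member among them, in the first comparison (DESeq2 adjusted p = 0.0177; 0.194% of genes called). Beside Lama2, Svep1, Postn and Thbs2 were higher in all 3 WD tumour mice than in all 3 RD no tumour mice, 4 of 10 members where 6.85% of all genes did so. Postn was at 4.12, 2.25 and 1.09 CPM in RD no tumour and 5.91, 7.33 and 5.16 in WD tumour. RD tumour 1, at 8.24 CPM, exceeded every WD tumour mouse, while RD tumour 2 had 3.53. The median log2 fold change of the 10 members was 0.79 for WD tumour and 0.74 for RD tumour against RD no tumour, beside -0.0070 and 0.0034 over all genes tested. These 2 comparisons share their control mice. The RD tumour median was 0.33 without RD tumour 1 (beside -0.07), and Sparc moved from 0.82 to -0.09. Between both RD groups, Lama2 was the only member without overlap (10.8% of genes, higher in RD tumour), and WD tumour lay above RD tumour for Lama2, Thbs2 and Tnc (10.4% of genes).

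For several other members a single mouse had the highest whole-library level. Svep1 was at 12.8, 4.50 and 1.34 CPM in RD no tumour, 25.9 and 7.05 in both RD tumour mice, and 13.1, 23.0 and 13.6 in WD tumour, so that RD tumour 1 was highest and WD tumour lay just above RD no tumour. Without RD tumour 1 the log2 fold change of Svep1 between both RD groups was 0.12, against 1.43 with it. Thbs2, a thrombospondin of mesenchymal cells, was at 1.27, 1.90 and 0.714 CPM in RD no tumour, 1.92 and 1.84 in both RD tumour mice, and 2.45, 3.15 and 3.70 in WD tumour, which lay above all RD mice. Tnc was at 3.12, 1.63 and 1.27 CPM, 1.72 and 1.98 CPM, and 2.01, 8.09 and 3.01 CPM in the same order of groups. Its highest value was again that of 1 mouse, WD tumour 2. Sparc was at 37.4, 29.4 and 26.7 CPM in RD no tumour, 80.9 and 31.6 in both RD tumour mice, and 32.3, 48.7 and 19.6 in WD tumour, with RD tumour 1 highest. Fn1 was at 999.6, 507 and 672 CPM in RD no tumour, 273 and 601 in both RD tumour mice, and 679.8, 952 and 589.6 in WD tumour. RD tumour 1 was lowest for Fn1, and RD no tumour and WD tumour overlapped. Thbs1 (0.776 to 5.70 CPM), Dcn (89.7 to 308) and Lum (2.33 to 23.0) overlapped in all 3 comparisons.

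**Figure D2:**
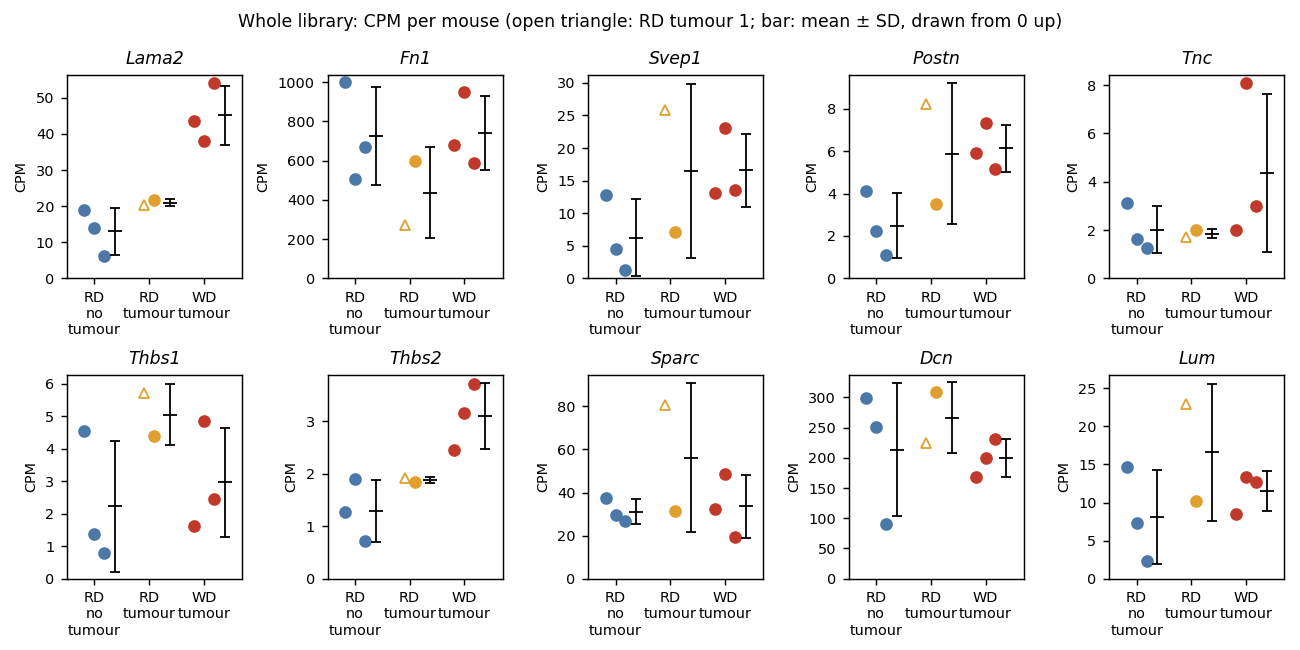
CPM in the whole library (y axis, from 0) of each gene by group (x axis), with 1 point per mouse, an open triangle for RD tumour 1 and a bar for the mean ± SD. The WD tumour points of Lama2 lie between 37.9 and 54.1, above all RD points.

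Within the stellate gate Lama2 was again highest in WD tumour. The levels were 118, 98.5 and 43.5 CPM in RD no tumour, 59.3 and 72.8 in both RD tumour mice, and 315, 316 and 253 in WD tumour (mean 295 ± 35.8, SD, n = 3). The value of RD tumour 1 rests on 6 Lama2 UMIs and those of the other mice on 37 to 281. WD tumour did not overlap with either RD group, and the RD groups overlapped with each other. The log2 fold change was 1.69 ± 0.38 (SE) against RD no tumour (edgeR, adjusted p = 1.00) and 2.24 ± 0.47 against RD tumour (edgeR, adjusted p = 0.655). DESeq2 called the latter only (adjusted p = 0.0173, against 0.123 for the former). In the comparison with RD tumour it called 0.287% of the 2783 genes to which it gave an adjusted p. It gave none to Postn, Tnc, Thbs2 and Lum there. Without RD tumour 1 the log2 difference from RD tumour was 2.07. Over the alternative settings and left-out mice the difference from RD no tumour stayed between 1.37 and 1.97 (log2), and adjusted p between 0.123 and 1.00. When stellate and fibroblast markers were joined into 1 gate, the levels were 163, 101 and 59.1 CPM in RD no tumour, 124 and 78.2 in both RD tumour mice, and 316, 299 and 326 in WD tumour. The groups were then separated in the same way.

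Periostin, which binds collagen and integrins, followed Lama2 in the stellate gate. Postn levels were 37.3, 25.0 and 16.5 CPM in RD no tumour, 19.8 and 17.6 in both RD tumour mice, and 72.4, 72.9 and 57.7 in WD tumour, again with WD tumour above all 5 RD mice. The value of RD tumour 1 rests on 2 UMIs and those of the other mice on 14 to 64. The log2 fold change was 1.27 ± 0.32 (SE) against RD no tumour and 2.00 ± 0.44 against RD tumour (edgeR, adjusted p = 1.00 and 0.655). In the joined gate the first of these was 0.70, with levels of 30.8 to 36.7 CPM in WD tumour and 11.0 to 27.2 in the RD mice. Of the 12 marker lists, 1 was separated in the same way in the stellate gate. The 8 mesothelial markers summed to 41.4, 61.8 and 46.0 CPM in WD tumour, 8.24 to 38.8 in RD no tumour, and 0 and 25.1 in both RD tumour mice, with 2 of them at 0 in all mice. Their part in the Lama2 and Postn levels was not tested. Of 9 members tested in the stellate gate, Lama2 and Postn were the 2 that did not overlap between WD tumour and RD no tumour, both higher (7.75% of 11439 genes). No gene passed the adjusted threshold in the stellate gate with edgeR (0% of 11439 genes in each comparison). With WD tumour versus RD no tumour first, both RD groups second and WD tumour versus RD tumour last, 291, 500 and 771 genes had an unadjusted edgeR p under 0.05 and DESeq2 called 3, 4 and 8.

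**Figure D3:**
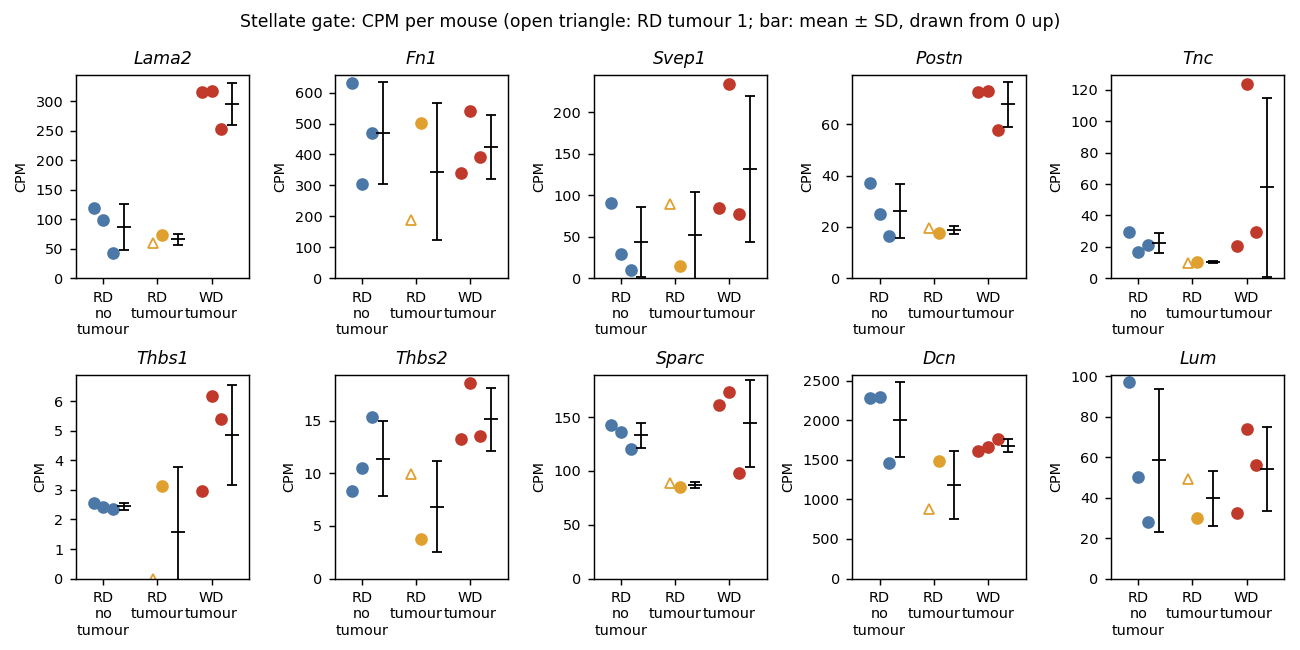
CPM in the stellate gate (y axis, from 0) of each gene by group (x axis), with 1 point per mouse, an open triangle for RD tumour 1 and a bar for the mean ± SD. Lama2 (253 to 316 in WD tumour) and Postn (57.7 to 72.9) lie above all RD mice, whereas the WD tumour points of Tnc and Svep1 are spread, with WD tumour 2 highest.

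For Tnc, encoding tenascin-C, and Svep1, 1 WD tumour mouse stood above all others. Tnc stood at 29.6, 17.0 and 21.2 CPM in RD no tumour, 9.89 and 10.7 in both RD tumour mice, and 20.7, 124 and 29.8 in WD tumour. WD tumour 2, with 100 Tnc UMIs, stood above every other mouse, and the other WD tumour mice lay within or just above the RD no tumour range. The log2 fold change from RD no tumour to WD tumour was 1.29 ± 0.62 (SE; edgeR, adjusted p = 1.00), and its lowest value over the alternatives was 0.12. The RD tumour mice were the lowest of all 8, on 1 and 17 Tnc UMIs. Svep1 stood at 90.6, 29.1 and 10.6 CPM in RD no tumour, 89.0 and 14.4 in both RD tumour mice, and 84.2, 234 and 77.6 in WD tumour, and the groups overlapped. From RD no tumour to WD tumour its log2 fold change was 1.51 ± 0.79 (SE; edgeR, adjusted p = 1.00). The summed level of the 13 fibroblast markers in the stellate gate was 653, 272 and 248 CPM in RD no tumour, 138 and 370.3 in both RD tumour mice, and 510, 711 and 397 in WD tumour. It was highest in WD tumour 2 and RD no tumour 1, the mice with the highest Svep1 level. RD tumour 1, with the lowest sum of all mice, had 89.0 CPM of Svep1 on 9 UMIs. RD tumour 2, with a sum of 370.3, had 14.4 CPM. The 13 markers were not particular to the stellate gate. In the hepatocyte gate they summed to 236, 295 and 163 CPM in RD no tumour and 83.5 and 233 in both RD tumour mice. In WD tumour they summed to 153, 191 and 115 CPM there. In RD no tumour 2 the hepatocyte gate had the higher sum of these 2 gates. The part of the fibroblast markers in the levels of Svep1, Tnc and Lama2 was not tested.

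The thrombospondins gave few counts. Thbs2 in the stellate gate was at 8.36, 10.5 and 15.3 CPM in RD no tumour, 9.89 and 3.77 in both RD tumour mice, and 13.3, 18.5 and 13.5 in WD tumour, on 1 to 15 UMIs per mouse. WD tumour lay above both RD tumour mice and overlapped with RD no tumour. Thbs1 had 0 to 6 UMIs per mouse there and was not tested. Sparc in the stellate gate was at 143, 136 and 120.0 CPM in RD no tumour, 89.0 and 84.7 in both RD tumour mice, and 161, 173 and 98.3 in WD tumour. The RD tumour mice had the lowest Sparc levels of all 8, on 9 and 135 UMIs, and WD tumour overlapped with RD no tumour. In the endothelial gate Sparc was at 133, 119 and 78.2 CPM in RD no tumour, 89.3 and 38.4 in both RD tumour mice, and 74.6, 117 and 37.6 in WD tumour, and all groups overlapped.

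The collagen-binding proteoglycans did not follow Lama2. Dcn in the stellate gate was at 2275, 2291 and 1455 CPM in RD no tumour, 879.8 and 1482 in both RD tumour mice, and 1615, 1656 and 1765 in WD tumour. WD tumour lay within the RD no tumour range (log2 fold change -0.32 ± 0.41, SE; edgeR, adjusted p = 1.00). Lum was at 97.1, 50.1 and 28.2 CPM in RD no tumour, 49.4 and 30.1 in both RD tumour mice, and 32.5, 74.2 and 55.9 in WD tumour, and all groups overlapped. The corresponding log2 fold change of Lum was -0.18 ± 0.46 (SE).

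The difference between both RD groups lay in opposite directions in different gates. In the stellate gate 0 of 9 tested members had a positive log2 fold change (median -0.83, beside -0.05 over all genes), and 2 of them, Tnc and Sparc, did not overlap between the groups (8.32% of genes were lower in this way). In the hepatocyte gate 9 of 10 were positive (median 2.12, beside -0.01), and 8 did not overlap, all higher, where 15.8% of 16551 genes did so. The hepatocyte median was 1.29 without RD tumour 1 (beside -0.06), with 9 of 10 still positive, and the stellate median -0.76 (beside -0.04). Without RD tumour 2, 1 of the 9 in the stellate gate was positive, Svep1 at 0.56. No gene passed the adjusted threshold with edgeR (0% in each gate). In the hepatocyte gate 1992 genes had an unadjusted p under 0.05 and DESeq2 called 410 genes (2.6%), among them Lama2 (adjusted p = 4.68e-05), Svep1 (0.0011) and Sparc (0.0376). Lama2 in the hepatocyte gate was at 2.87, 2.87 and 1.54 CPM in RD no tumour and at 21.5 and 12.9 in both RD tumour mice. In RD tumour 1 Sparc was at 82.6 CPM in the hepatocyte gate, 89.0 in the stellate gate and 89.3 in endothelium, so the gates of this mouse did not separate it. Without RD tumour 1 the log2 fold change in the hepatocyte gate was 2.29 for Lama2, 1.71 for Svep1 and 1.26 for Sparc, against 2.65, 3.53 and 2.42 with it. In the stellate gate all 9 were still negative without it, with Fn1 at -0.0085. Stellate marker sums in the stellate gate were lower in both RD tumour mice (2323 and 6757 CPM) than in RD no tumour (6844 to 8854) and WD tumour (7787 to 8195). Endothelial marker sums in this gate were higher in both (593 and 446 CPM) than in RD no tumour (224 to 339), as were smooth muscle sums (39.5 in each against 14.8 to 22.6). The part of these markers in the stellate values was not tested. Of the 12 marker lists, 5 were higher in the hepatocyte gate of both RD tumour mice than of each RD no tumour mouse, and none was lower. The stellate sum was 43.4 to 70.3 CPM in RD no tumour, 136 and 168 in both RD tumour mice, and 114 to 122.5 in WD tumour. The endothelial sum was 116 to 238 CPM in RD no tumour and 774 and 369 in both RD tumour mice, and the smooth muscle sum 4.07 to 7.55 and 22.0 and 25.6. The mesothelial and B cell sums were separated too, at 6.34 and 13.1 CPM against 1.60 to 5.64, and at 177 and 221 CPM against 101 to 159. None of the markers of these 5 lists was at 0 in all mice, and the part of such RNA in the hepatocyte values was not tested. In the endothelial gate Lama2, Svep1 and Thbs1 did not overlap between both RD groups (3 of 8 tested, all higher in RD tumour; 11.7% of genes). Their log2 fold changes there were 1.09, 3.15 and 1.11, and 1.25, 1.55 and 0.90 without RD tumour 1. The 18 endothelial markers summed to 2727 and 3248 CPM in this gate in both RD tumour mice, below RD no tumour (4478 to 8162) and WD tumour (5161 to 7314). Smooth muscle markers summed to 19.1 and 15.3 CPM there, above RD no tumour (2.91 to 7.50), whereas the stellate sums, at 106 and 559 CPM, lay on both sides of RD no tumour (228 to 336). The part of these markers in the endothelial values was not tested.

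Against RD no tumour, WD tumour shared in part the higher levels in the hepatocyte and endothelial gates. It did not share the lower stellate levels, where 6 of 9 tested members had a positive log2 fold change. In the hepatocyte gate Lama2 was at 15.8, 11.8 and 24.0 CPM in WD tumour, and its log2 fold change from RD no tumour was 2.82 ± 0.41 (SE; edgeR, adjusted p = 0.545). In the endothelial gate Lama2 was at 5.20, 6.18 and 4.22 CPM in RD no tumour, 9.85 and 13.3 in both RD tumour mice, and 23.3, 21.8 and 27.7 in WD tumour. The 3 groups did not overlap there, and the log2 fold change of WD tumour against RD no tumour was 2.14 ± 0.30 (SE; edgeR, adjusted p = 0.845). DESeq2 called both (adjusted p = 1.76e-06 and 2.42e-05; 0.719% and 0.0564% of genes called), and Thbs2 in the hepatocyte gate (adjusted p = 0.0249). Lama2, Svep1, Lum and Thbs2 were the 4 of 10 members that did not overlap in the hepatocyte gate, all higher (6.94% of genes). In the endothelial gate 3 of 8, Lama2, Svep1 and Postn, did so (6.69%). In the hepatocyte gate stellate marker sums were 43.4 to 70.3 CPM in RD no tumour and 114 to 122.5 in WD tumour. Of the 12 marker lists, stellate and B cell markers were separated in that gate, both higher in WD tumour. Their part in the hepatocyte values was not tested. Stellate marker sums in the endothelial gate were 228 to 336 CPM in RD no tumour and 274 to 399 in WD tumour, and these ranges overlapped. Of the 12 lists, cholangiocyte markers alone were separated there, at 203 to 350 CPM in WD tumour and 84.0 to 141 in RD no tumour. Between WD tumour and RD tumour, Dcn was the 1 member without overlap in the hepatocyte gate, lower in WD tumour (15% of genes). In the endothelial gate Dcn was lower (9.51%) and Lama2 higher (11.7%). By contrast, 6 of 9 members in the stellate gate did not overlap between them, all higher in WD tumour (11.9% of genes). They were Lama2, Postn, Tnc, Thbs2, Sparc and Dcn, with a median log2 fold change of 1.81 over the 9 members tested, beside 0.01 over all genes. All 9 were positive. Without RD tumour 1 the median was 1.99 (beside 0.04), the 6 ranged from 0.24 for Dcn to 2.47 for Tnc, Svep1 moved from 2.13 to 3.23, and Fn1 turned to -0.18. In the stellate gate 4 of the 12 marker lists were higher in WD tumour than in both RD tumour mice (stellate, fibroblast, mesothelial and cholangiocyte) and 2 were lower (endothelial and smooth muscle). Their part in these values was not tested.

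**Figure D4:**
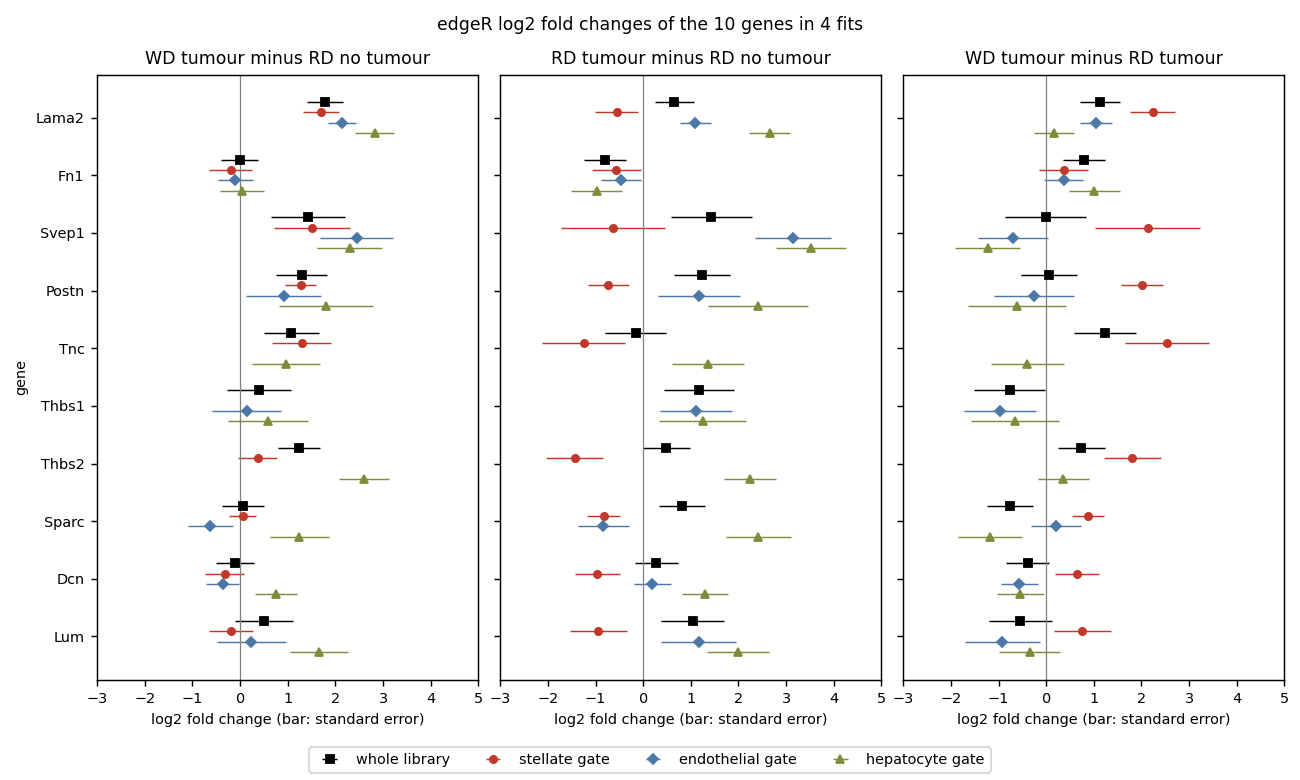
Log2 fold changes (x axis; bars, standard error) of each gene (y axis) in the whole library and the stellate, endothelial and hepatocyte gates for 3 comparisons of groups. Lama2 is positive in all fits against RD no tumour except the stellate gate of RD tumour (-0.55), and between both RD groups every member tested in the stellate gate is negative.

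The share of stellate-like barcodes with a Lama2 UMI was also higher in WD tumour. At so few Lama2 UMIs per barcode, a share taken at equal depth follows largely from the level. It therefore restates the stellate level above and cannot tell more positive nuclei from more RNA per nucleus. After drawing 1000 UMIs from each stellate-like barcode with at least that many, 8.82%, 7.62% and 5.03% of the RD no tumour barcodes held a Lama2 UMI. In the RD tumour mice 0 of 38 and 8.66% held one, and in WD tumour 22.9%, 21.3% and 19.0%. The exact 95% binomial intervals, which cover counting error only, ran from 15.5% to 28.5% over the WD tumour mice and from 2.96% to 11.4% over the RD mice other than RD tumour 1, whose 0 allowed up to 9.25%. In macrophages, which should lack the gene, the share was 0.0% to 1.73%. Before the draw the shares were 14.3%, 15.5% and 6.17% in RD no tumour, 14.0% and 10.2% in both RD tumour mice, and 31.1%, 38.3% and 27.7% in WD tumour. Median depth was 1227 to 2866 UMIs per stellate-like and 1699 to 3744 per macrophage-like barcode, and 3 to 256 stellate-like barcodes per mouse were too shallow for the draw. Barcodes with 3 or more Lama2 UMIs made up 0% to 3.05% of the stellate gate in the RD mice and 7.98% to 17.0% in WD tumour. For Postn the drawn share was 1.51% to 4.48% in the RD mice and 5.44% to 8.43% in WD tumour, whose lowest interval (from 3.52%) overlapped those of RD mice. For Dcn it was 42.1% in RD tumour 1 and 74.0% to 87.2% in the other 7 mice.

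**Figure D5:**
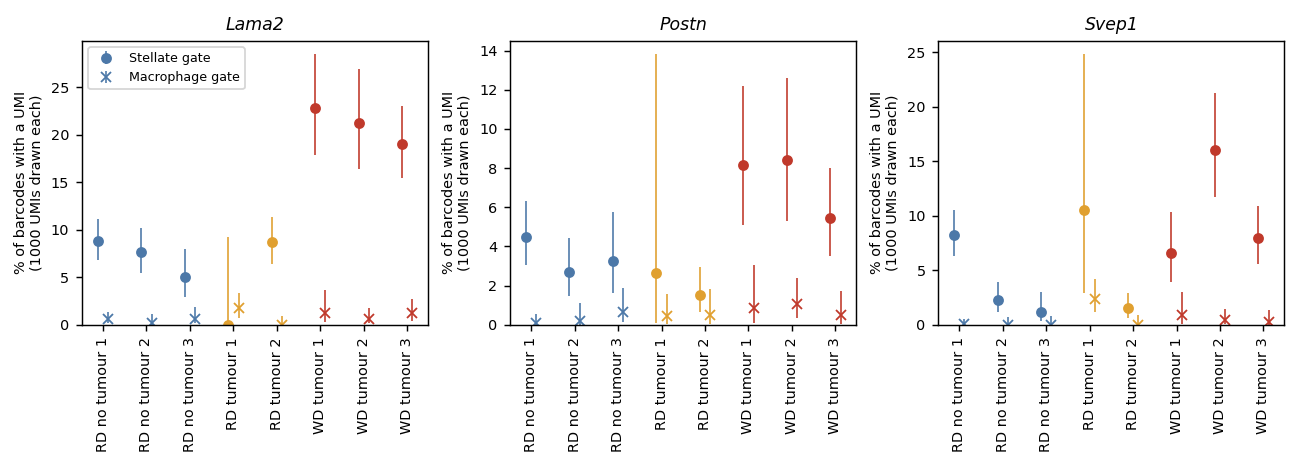
Percentage of stellate-gate (circles) and macrophage-gate (crosses) barcodes with at least 1 UMI of Lama2, Postn or Svep1 (y axis) per mouse (x axis) after drawing 1000 UMIs per barcode, with exact 95% binomial intervals. For Lama2 the 3 WD tumour mice lie at 19.0% to 22.9%, above the intervals of the RD mice, whose highest bound is 11.4%.

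Genes of the same pathways, in 4 lists, were examined in the same fits. No gene of any list passed the adjusted threshold with edgeR. In whole libraries DESeq2 called 1 of them, Itga8 for WD tumour versus RD no tumour (adjusted p = 0.0196). Among 24 receptors of these proteins, 4 had an unadjusted edgeR p under 0.05 in that comparison, all higher (1.84% of all genes were). Itga8, an integrin chain of stellate cells and other mesenchymal cells, was at 57.9, 85.6 and 77.6 CPM in the stellate gate in RD no tumour, 39.5 and 43.9 in both RD tumour mice, and 254, 187 and 165 in WD tumour. WD tumour lay above all RD mice, as for Lama2, with a log2 fold change from RD no tumour of 1.39 in the stellate gate and 1.65 ± 0.35 (SE) in the whole library (edgeR, adjusted p = 1.00 for both). Against RD tumour it was 2.36 in the stellate gate (edgeR adjusted p = 0.555, DESeq2 0.0053). Itgb6, an epithelial integrin chain that activates latent TGF-beta, was at 0.132 to 0.274 CPM in libraries of RD no tumour, 0.786 and 0.918 in both RD tumour mice and 0.755 to 1.84 in WD tumour. Itgb1, the beta chain shared by many matrix-binding integrins, had a log2 fold change of 1.20 ± 0.49 (SE) between both RD groups (0.04 without RD tumour 1), and was at 579.8 CPM in RD tumour 1 but 181 in RD tumour 2, within the range of the other mice. Sdc1, a syndecan of hepatocytes, was at 115 and 78.2 CPM in RD tumour and at 36.9 to 46.9 in WD tumour.

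Of 14 laminins and basement membrane linkers, all tested, 13 had a positive log2 fold change from RD no tumour to WD tumour in whole libraries (median 0.41), and 4 did not overlap (6.85% of genes). In the hepatocyte gate 9 of 13 tested did not overlap between both RD groups, all higher in RD tumour (15.8% of genes), with a median of 1.57. DESeq2 called 5 of the 13 there, and 3 of 21 other glycoproteins (2.6% of genes). For WD tumour against RD no tumour it called 2 laminins or linkers, 1 other glycoprotein and 2 receptors in that gate (0.719% of genes). Lamb1, a laminin beta chain, was at 107, 50.1 and 67.1 CPM in the stellate gate in RD no tumour, 69.2 and 65.9 in both RD tumour mice, and 103, 190.4 and 107 in WD tumour, and the groups overlapped. The heparan sulfate proteoglycan perlecan (Hspg2) had a log2 fold change of 0.57 ± 0.26 (SE) in the whole library. Between both RD groups Nid1 and Lamb2 had the lowest unadjusted p, at 1.62 ± 0.61 and 1.03 ± 0.43 (log2, SE). Nid1 was at 69.8 CPM in RD tumour 1 and 18.7 in RD tumour 2. The values were 0.29 for Nid1 and 1.37 for Lamb2 without RD tumour 1. For WD tumour against RD tumour Lamc3 (1.64 ± 0.74) and Nid1 (-0.91 ± 0.61) had the lowest unadjusted p. Lamc3 was at 0.95 and Nid1 turned to 0.42 without RD tumour 1.

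Of 27 other matricellular and adhesive glycoproteins 25 were tested in the whole library, 16 of them positive between RD no tumour and WD tumour (median 0.08). Hemicentin-1 (Hmcn1) was at 42.2, 38.8 and 20.6 CPM in RD no tumour, 33.0 and 70.1 in both RD tumour mice, and 65.8, 52.1 and 73.6 in WD tumour. In the stellate gate its log2 fold change was 0.26. Frem1 had 1.13 ± 0.54 and, against RD tumour, 1.18 ± 0.62, where Smoc1 had 1.73 ± 0.85. The latter 2 were 0.59 and 0.96 without RD tumour 1. Between both RD groups Mfge8 and Ccn1 had the lowest unadjusted p, at 1.62 ± 0.49 and 1.21 ± 0.41 (0.63 and 0.82 without RD tumour 1). Of 12 small leucine-rich proteoglycans other than Dcn and Lum 9 were tested, 6 of them positive between RD no tumour and WD tumour (median 0.09) and 1 between RD no tumour and RD tumour. Osteomodulin (Omd) was at 8.41 and 11.1 CPM in both RD tumour libraries, 13.4 to 24.2 in those of RD no tumour and 21.7 to 23.9 in WD tumour. Podnl1 and Chad, the others named by the lowest unadjusted p, stayed under 2 CPM in all libraries.

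Genes with the most similar pattern were ranked by Pearson's r of log2(CPM + 1) over 64 sums of UMIs by class and mouse, as a description, since these sums share libraries, depth and free RNA. Closest to Lama2 were Pcdh7 (r = 0.850), Antxr1 (0.812) and Gm15866 (0.804). Closest to Svep1 were Col1a2 (0.785), C7 (0.778) and Gli3 (0.775), and closest to Dcn were Col14a1 (0.826), Lama1 (0.788) and Zfp804b (0.778). For Postn they were Pdlim5 (0.729), Col14a1 (0.701) and Gucy1a1 (0.699), and for Thbs2 Gli3 (0.735), Itgbl1 (0.707) and Gabra3 (0.705). Sparc was most like Sptbn1 (0.786), Pam (0.784) and Ccdc80 (0.770). Fn1 was most like Pzp (0.833), Nos1ap (0.827) and Egfr (0.806). For Tnc (Slc24a3, Gm47015 and Sytl2), Lum (Mrc2, Neto1 and Plvap) and Thbs1 (Lmo4, Tpm2 and Cpe) r was at most 0.739.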

How the data were processed

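The authors deposited raw UMI counts per gene and barcode for 8 mice, in matrices whose writer, per the file headers, is Cell Ranger 7.0.0; the build is mm10 per the submitters' processing notes, and the counting of introns is not given in the sources used here. Barcodes with at least 300 genes were kept and gated by 137 markers of 12 classes. A class needed 3 markers above the mouse's median and a lead of 2. The hepatocyte gate took barcodes with at least 5 of its markers and at most 1 above the median of any other class. Doublets stayed in, and removal with Scrublet (scanpy 1.11.5) was an alternative. Counts were summed per mouse and class with at least 20 barcodes and tested with edgeR 4.0.16 (R 4.3.3; quasi-likelihood F test, TMM, filterByExpr, Benjamini-Hochberg adjustment over all genes tested, threshold 0.05) in 1 model of 3 groups; DESeq2 1.42.0 was an alternative. The mouse is the replicate. Depth ranged from 17948627 to 34363108 UMIs. The scripts were tested on simulated data. Permutation tests used scipy 1.17.1; the comparison of gates was planned as a description, and its test and the 12 check genes were added after levels were seen. Members and gene lists were chosen with earlier results of these data known. All 10 members are named in each fit that tested them. Of each related list, the 2 genes with the lowest unadjusted p in each whole-library comparison are named. Likeness used 10909 genes with a mean of at least 10 CPM, with 3 named per member. The 38 symbols with more than 1 gene ID were read at their first ID.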

Additional observations from a re-analysis of the deposited data

Results flagged for a closer look

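In 4 cases the differences in 2 gates lay in opposite directions in all mice of the groups compared; the gap between gates was not tested. Between both RD groups, Sparc was higher in both RD tumour mice in the hepatocyte gate (82.6 and 22.5 CPM against 6.48 to 11.4) and lower in both in the stellate gate, a gap of 3.25 between the 2 log2 fold changes. Tnc had the same directions with a gap of 2.61, on 1 and 17 Tnc UMIs in the stellate gate of RD tumour. In the hepatocyte gate Tnc was at 2.14 and 0.859 CPM in RD tumour, on 29 and 7 UMIs. RD no tumour had 0.267 to 0.741 CPM there, on 4 to 8 UMIs. For WD tumour against RD tumour, Dcn was higher in all WD tumour mice in the stellate gate (1615 to 1765 CPM against 879.8 and 1482). It was lower in all of them in the hepatocyte gate (103 to 174 CPM against 226 and 223), a gap of 1.18. In the endothelial gate it was also lower (118 to 143 CPM against 179 and 199), a gap of 1.20. Stellate marker sums in the hepatocyte gate were higher in both RD tumour mice (136 and 168 CPM) than in RD no tumour (43.4 to 70.3) and WD tumour (114 to 122.5), and their part in these gaps was not tested.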

How the results depend on the processing

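Of 1870 refits of a member's log2 fold change, 1781 kept the direction and stayed uncalled, 75 changed sign without a call in either fit, 14 kept the direction and were called (8 by DESeq2 and 6 without RD tumour 2), and 0 were called in the other direction. DESeq2 called more genes than edgeR's 0, in the order WD tumour versus RD no tumour, both RD groups, and WD tumour versus RD tumour: 36, 64 and 109 in the whole library, 118, 410 and 55 in the hepatocyte gate, 8, 78 and 37 in the endothelial gate and 3, 4 and 8 in the stellate gate. Without a filter on low counts edgeR called 12, 6 and 13 genes in the stellate gate and 0 elsewhere. Leaving out 1 mouse at a time gave 0 to 2 genes in the stellate gate for WD tumour versus RD no tumour (2 without RD no tumour 1, 1 without WD tumour 2) and 0 in the other 3 fits. Between both RD groups it gave 0 to 4569 in the whole library, 0 to 4630 in the hepatocyte gate, 0 to 1442 in the endothelial gate and 0 to 307 in the stellate gate. For WD tumour against RD tumour it gave 0 to 4438, 0 to 3201, 0 to 1513 and 0 to 327. The highest values all arose without RD tumour 2, which leaves RD tumour 1 alone in its group, assumed to vary like the others; without RD tumour 1, 11 genes were called between both RD groups in the whole library. Without RD tumour 2, Lama2, Svep1, Thbs2 and Sparc were called higher in the hepatocyte gate of RD tumour than of RD no tumour, Svep1 also in the endothelial gate, and Svep1 was called lower in WD tumour than in RD tumour in the hepatocyte gate (log2 fold change -2.00). Deviations of same-numbered mice from their group means correlated from -0.587 to 0.499. With 2 or 3 mice per group these deviations are tied to each other, so they cannot settle whether replicate numbers pair the mice. With the replicate block 0 genes were called in every fit. RLE size factors, at least 500 genes per barcode, Scrublet removal, at most 5% mitochondrial UMIs, fits of 2 groups and 1 more marker also gave 0. Joining stellate and fibroblast markers, chosen after the data were seen, gave 0 calls and moved the median stellate level of Dcn to 1040.0 and of Sparc to 90.8 CPM. The cause of these changes was not tested. The planned tests in the fibroblast gate could not be run, since 20 barcodes were reached in 1 mouse per group. Groups of 2 and 3 mice and few UMIs limit the precision for Thbs1, Thbs2, Tnc and Postn.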

Other observations

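Tnc UMIs were also found in the T/NK gate: 2, 0 and 4 in RD no tumour (285, 128 and 108 barcodes), 1 and 5 in RD tumour (13 and 87 barcodes) and 5, 2 and 4 in WD tumour (81, 107 and 105 barcodes). The cholangiocyte gate had 0 CPM of Tnc in all 8 mice.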
